A study of Homo sapiens with 4 samples.

Results

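MT-CYB (CYB below) is the mitochondrial mRNA of cytochrome b, and its chemical reactivity was followed base by base. Its positions were chosen by coordinates, without use of any measured value: they run from 14746 to 15886 of the heavy-strand file, 1141 of 16500 positions. Over CYB the files' numbering is the standard mitochondrial numbering lowered by 1, and the gene table of the assembly GRCh38.p14 lists the gene as CYTB. The stretch opens with ATG, holds 380 whole codons without an internal stop, and ends in a lone T. Of its positions 717 are A or C, the bases that report on structure, and 713 of these were tested, against 9910 tested positions in the whole file.

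The study isolated mitochondria from a human embryonic kidney cell line (HEK-293T in the growth protocol, HEK 293 in the sample labels) and treated them with 1% dimethyl sulfate (DMS) for 5 min at 37 °C. The groups were wild type, with 2 biological replicate libraries, and cells lacking LRPPRC, with 2. All 4 libraries were DMS-treated, and a library without DMS was not analysed here. The labels do not say how the knockout was made or whether it is 1 clone, and the files hold the mitochondrial genome alone, so neither the loss of LRPPRC nor the cell type could be checked. The values are mismatch fractions without read counts, so the depth is unknown, and p-values measure the spread between these libraries.

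Cytochrome b is the subunit of respiratory complex III that the mitochondrial genome encodes, and it carries the haem groups that pass electrons within the membrane. Human mitochondrial mRNAs have almost no leader, so the start codon lies at or near the 5′ end, and in CYB the stop codon is completed by the poly(A) tail. LRPPRC is an RNA-binding protein known to stabilise mitochondrial mRNAs and to affect their structure, polyadenylation and translation. DMS methylates the pairing face of A and C where it is not protected, and reverse transcription then leaves a mismatch there, so a high fraction at A or C marks an accessible base. G and T do not report in this way and serve as background.

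The stretches of CYB that the results turn on are printed as the files give them, with T for U, in windows of 50 nt laid end to end from the first base. In the first set capitals mark A and C whose wild-type mean lies in the top 25% for that base in CYB (at least 3.598% for A and 5.29% for C). It holds the start, the pair of windows with the highest wild-type mean of log2 values, and the end.
Window 1, MT:14746-14795: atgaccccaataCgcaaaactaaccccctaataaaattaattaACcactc
Window 15, MT:15446-15495: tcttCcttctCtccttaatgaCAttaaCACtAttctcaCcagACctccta
Window 17, MT:15546-15595: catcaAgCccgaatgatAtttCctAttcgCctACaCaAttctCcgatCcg
Window 23, MT:15846-15886: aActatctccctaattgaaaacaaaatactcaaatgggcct
Capitals number 3 of 36 tested positions in window 1 and 1 of 27 in window 23, against 11 of 30 and 12 of 30 in windows 15 and 17.

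The second set holds the 2 windows called with the largest rise, 6 and 9, and the 2 called lower, 12 and 20, after each library was centred on its median over the file. The falls were small, and several windows not shown rose by more than either fell. Capitals in windows 6 and 9 mark A and C called higher in the knockout.
Window 6, MT:14996-15045: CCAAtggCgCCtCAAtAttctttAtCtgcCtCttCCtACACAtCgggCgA
Window 9, MT:15146-15195: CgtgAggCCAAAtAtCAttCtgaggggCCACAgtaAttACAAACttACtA
Capitals in windows 12 and 20 mark A and C called lower.
Window 12, MT:15296-15345: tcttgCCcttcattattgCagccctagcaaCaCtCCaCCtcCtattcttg
Window 20, MT:15696-15745: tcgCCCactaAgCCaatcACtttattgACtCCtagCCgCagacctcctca
In windows 6 and 9 the capitals took 25 of 27 and 26 of 28 tested positions. They took 10 of 27 in window 12, of which each is a C, and 15 of 32 in window 20.

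Mismatches in CYB fell mainly on the bases that DMS modifies. At A the mean fraction was 2.92% and 2.90% in the wild-type libraries against 2.29% and 2.26% in the knockout ones, over 323 positions. At C it was 4.12% and 4.07% in wild type against 2.62% and 2.64% in the knockout, over 390 positions. For both bases each wild-type library lay above each knockout library. At G, over 136 positions, the means were 0.450%, 0.417%, 0.489% and 0.522% in the same order of libraries. At T, over 287 positions, they were 1.04%, 1.01%, 0.973% and 0.976%. The background therefore moved little beside the signal. Signal over background, taken as mean A and C over mean G and T, went from 4.26 ± 0.0967 (SD, n = 2) to 3.00 ± 0.0302 (n = 2), an exact permutation test giving two-sided p = 0.333. With 2 libraries against 2 this is the smallest p possible for any value compared over libraries below. Over the other 11 heavy-strand mRNAs the ratio ranged from 3.35 to 4.80 in wild type and from 1.56 to 3.92 in the knockout.

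**Figure D1:**
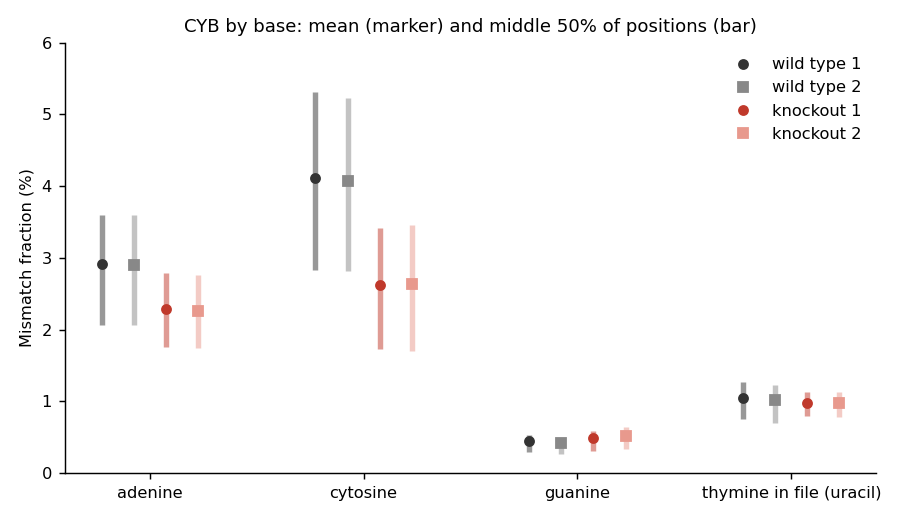
Mismatch fraction (%) at each kind of base of CYB in the 4 libraries; markers are means over positions and bars span the middle 50% of positions. The means at cytosine sit at 4.12% and 4.07% in wild type and at 2.62% and 2.64% in the knockout, while those at guanine stay between 0.417% and 0.522%.

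The C positions lost more signal than the A positions. In the knockout the mean at A was 0.782 times that of wild type and the mean at C was 0.642 times it. On the log2 scale, taken as log2(fraction + 0.001), the wild-type excess of C over A was 0.38 ± 0.009 (SD, n = 2), and the knockout excess was 0.11 ± 0.018 (n = 2). Knockout minus wild type was -0.27 (exact permutation p = 0.333, two-sided). The median change without centring was -0.33 over the A positions of CYB and -0.59 over its C positions. Over all tested positions of the heavy-strand file these medians were -0.39 and -0.66, so the unequal change of the bases was of like size there.

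As a whole, CYB was less reactive in the knockout. Over its 713 tested positions the mean fraction was 3.57% and 3.54% in wild type against 2.47% and 2.47% in the knockout, so the groups did not overlap. Fitted with limma over 37 genes without centring, CYB fell by 0.47 on the log2 scale (SE 0.013, adjusted p 0.000253). The library medians of the whole file moved by -0.63, and relative to that shift CYB was higher by 0.16 (SE 0.012, adjusted p 0.00287), so its direction depends on the centring. A centred change above 0 was common: its median was 0.13 over all tested positions of the file and 0.19 over those of CYB. Of all genes 83.8% were called after centring (59.5% higher, 24.3% lower) and 75.7% without it (8.11% higher, 67.6% lower). After centring the adjusted p rose to 0.0657 without knockout replicate 1 and to 0.0652 without knockout replicate 2.

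Within each library, which needs no scaling, CYB lay near the mean of the other heavy-strand mRNAs in wild type and above it in the knockout. Its mean log2 level differed from that of the other 11 by 0.005 and 0.008 in the wild-type libraries and by 0.11 in each knockout library. The difference between the groups was 0.10 (exact permutation p = 0.333), with SDs of 0.0025 and 0.00059 from 2 libraries each. Corrected for reads of the opposite strand (below) it was 0.06. By mean fraction CYB stood in rank 6 of the 12 mRNAs for wild type, and rank 2 for the knockout, where ATP6, a subunit of ATP synthase, had 2.52% ± 0.004 and CYB 2.47% ± 0.002. Without centring the 11 others were each called lower by limma, with a median change of -0.50, and after centring 8 were called higher and 1, ND4, lower, with a median of 0.13. The change of CYB without centring, -0.47, was rank 5 of 12 from the smallest fall. The mean of the others is over positions, so long mRNAs weigh most: ND5 (1165 positions, change -0.62), ND4 (883, -0.90) and COX1 (877, -0.38). Knockout ranks 2 to 7 ran only from 2.47% to 2.37%.

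By the levels at A and at C in the 4 libraries, 8 values in all, the mRNAs most like CYB were ND1 and ND2, both subunits of complex I. Their Euclidean distances from CYB were 0.17 and 0.20 log2 units. ND1 went from 3.58% ± 0.016 to 2.41% ± 0.010 and ND2 from 3.69% ± 0.010 to 2.43% ± 0.011, against 3.56% ± 0.021 to 2.47% ± 0.002 in CYB. Least like it were ATP8, of ATP synthase, at 0.71, and ND4, of complex I, at 0.69. ND4 went from 3.85% ± 0.021 to 1.94% ± 0.010, and its changes at A and C of -0.71 and -1.06 compare with -0.32 and -0.59 in CYB.

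**Figure D2:**
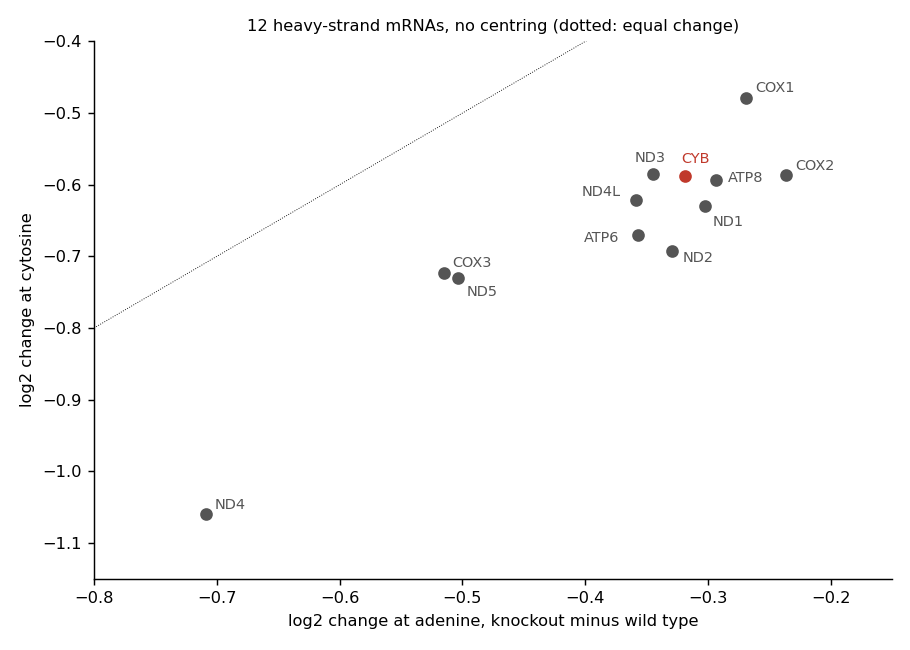
Log2 change (knockout minus wild type, no centring) at adenine on the x axis and at cytosine on the y axis for the 12 heavy-strand mRNAs, each point the difference of group means of 2 libraries. CYB (red) lies at -0.32 and -0.59 among the mRNAs with the smaller changes, and each mRNA lies below the dotted line of equal change.

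Over its tested positions, CYB also had more even fractions in the knockout. The Gini index of its fractions, which is 0 for an even spread and rises as few positions hold the signal, was 0.261 and 0.261 in wild type against 0.231 and 0.236 in the knockout. It fell by 0.0274 (limma SE 0.00295, adjusted p 0.0114), where 45.9% of genes were called, 37.8% lower and 8.11% higher. Each of the other 11 heavy-strand mRNAs was called lower, with a median change of -0.0279. The index pools A and C, whose levels lay closer together in the knockout. With A positions alone the change of CYB was -0.0193 (limma adjusted p 0.0418). With C positions alone the change was -0.0001 (adjusted p 0.970), and without any 1 of the libraries the adjusted p lay between 0.0559 and 0.123.

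The change by starting level was taken from positions sorted by wild-type replicate 1 into 4 equal groups, with the wild-type level then read from wild-type replicate 2. Among A positions the lowest group had a median of 1.60% in that library and 1.38% in both knockout libraries, a median log2 change of -0.16 over 81 positions. The highest group of A had 4.03% in that library and 3.08% and 3.10% in the knockout, a change of -0.43. Among C positions the lowest group went from 1.83% to 1.34% and 1.37%, a change of -0.25, and the other groups changed by -0.66, -0.63 and -0.63. The loss thus grew with the starting level at A, while at C only the lowest group stood apart. The lowest groups lay nearest to the background mean at T, 1.03% in wild type and 0.975% in the knockout. How far this background limits their change was not tested. In the highest group of each base every position (81 of A and 98 of C) was lower in the knockout.

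Single positions were compared with limma over the whole heavy-strand file. Among the 713 tested positions of CYB 541 were called after centring, which is 75.9% against 71.5% in the file. Of these 412 were higher, 57.8% against 44.9%, and 129 lower, 18.1% against 26.6%. Without centring 637 were called, 89.3% against 83.0% in the file, with 28 higher (3.93% against 4.73%) and 609 lower (85.4% against 78.3%). The bases differed. After centring 254 of 323 A positions were higher (78.6%, against 57.2% of A in the file) and 10 lower (3.10% against 13.2%). Of 390 C positions 158 were higher (40.5% against 32.8%) and 119 lower (30.5% against 39.8%). Without centring 11 A positions were higher (3.41% against 4.56%) and 267 lower (82.7% against 73.8%), and 17 C positions were higher (4.36% against 4.90%) and 342 lower (87.7% against 82.7%). The values of the groups did not overlap at 689 positions as deposited (96.6%, against 92.1% in the file) and at 637 after centring (89.3% against 87.2%). Changes of at least 1 on the centred log2 scale were fewer in CYB, 16 positions or 2.24%, against 7.53% in the file.

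**Figure D3:**
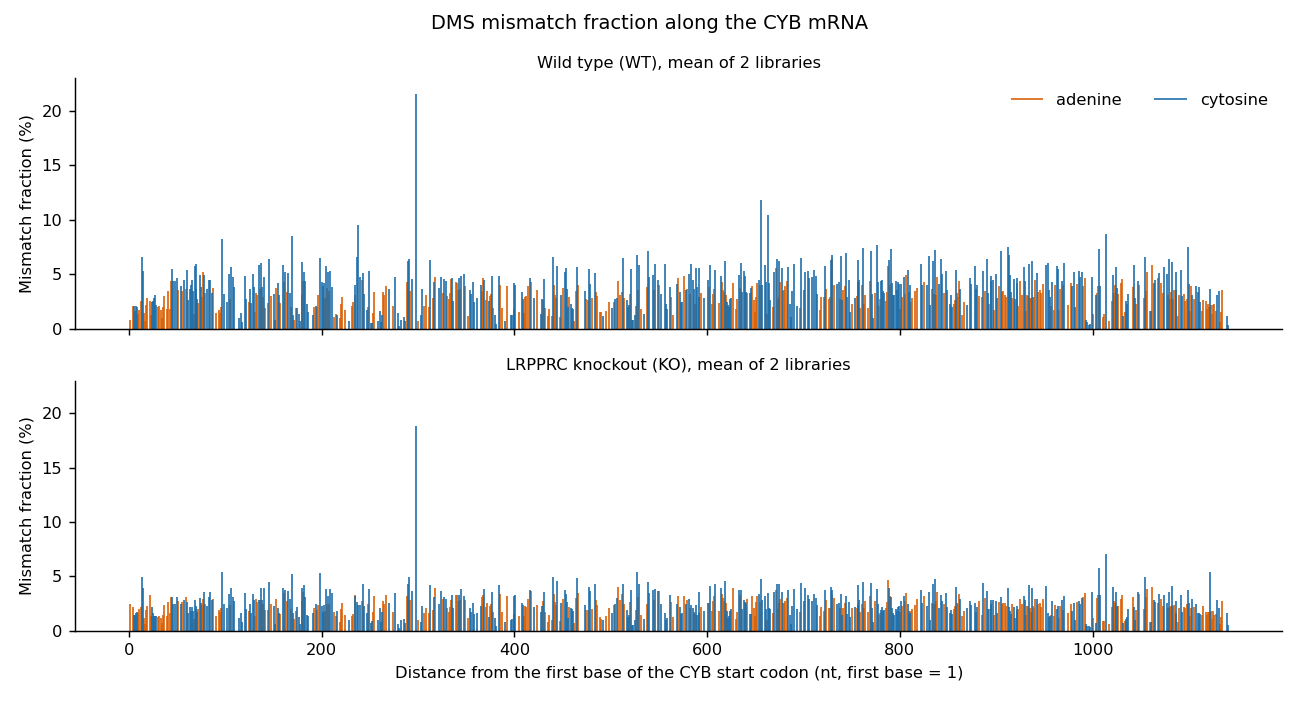
Mean mismatch fraction (%, y axis) at each tested adenine (orange) and cytosine (blue) of CYB against distance from the first base of the start codon (nt), for wild type above and the knockout below (n = 2 libraries each). The tallest bar, a cytosine at nt 298, reaches 21.5% in wild type and 18.8% in the knockout, while the cytosines at nt 656 and 663 drop from 11.8% and 10.5% to 4.76% and 3.45%.

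Among the tested positions of CYB, which leave out those above 30%, the 5 with the highest wild-type fraction were each a C, and they did not behave alike. Position 15043, in catcgggCgaggcct, had 21.8% and 21.3% in wild type against 18.7% and 19.0% in the knockout, by far the highest of the tested positions of CYB. Its change was -0.19 without centring (limma adjusted p 0.132) and 0.44 after it (adjusted p 0.0142), so its direction depends on the centring. The adjusted p of the centred change was 0.105 and 0.120 without wild-type replicate 1 or 2 and 0.116 with a pseudocount of 0.01, and quantile normalization gave a change of 0. Position 15401, in aaaatcaCcttccac, had 11.9% and 11.7% in wild type against 4.70% and 4.82% in the knockout. Position 15408, in ccttccaCccttact, had 10.6% and 10.4% against 3.42% and 3.47%. These neighbours fell to under 5% in both knockout libraries. Position 14983, in aatcatcCgctacct, had 9.51% and 9.52% in wild type against 2.46% and 2.23% in the knockout. Position 15759, in cctgaatCggaggac, had 8.77% and 8.56% against 6.84% and 7.26%, a change of -0.29 without centring (limma adjusted p 0.0020) and of 0.34 after it.

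The largest falls were at C positions as well. Position 14983 fell by 1.35 after centring and by 1.98 without it (limma SE 0.050, adjusted p 0.000169 after centring), to 0.246 times its wild-type level. Position 15748, in cctcattCtaacctg, had 3.04% and 3.12% in wild type against 0.709% and 0.722% in the knockout, a centred change of -1.33. Position 15699, in tatttcgCccactaa, had 6.14% and 5.91% against 1.799% and 1.55%, a change of -1.16. Position 15301, in catcttgCccttcat, had 6.05% and 5.77% against 1.70% and 1.64%, a change of -1.13. Position 15408 changed by -0.94. At these 5 positions the knockout mean was 0.232 to 0.329 times that of wild type, and the groups did not overlap (limma adjusted p 0.000119 to 0.000401).

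The largest rise was at the A of the start codon, the first base of CYB. Position 14746 had 0.749% and 0.819% in wild type against 2.38% and 2.54% in the knockout, 3.14 times as much. The centred change was 2.17 (limma SE 0.075, adjusted p 0.000153) and the change without centring 1.54. The other bases of the start codon, on which DMS does not report, were higher in the knockout as well. The T at 14747 had 0.576% and 0.624% against 2.95% and 3.10%, and the G at 14748 had 0.297% and 0.288% against 1.07% and 1.09%. The next base, an A at 14749, had 2.12% and 2.09% against 2.17% and 2.18%. The base before the start codon, an A at 14745, had 1.67% and 1.58% against 1.84% and 1.85%. The higher values thus lay at each base of the codon, with ratios of 3.14, 5.04 and 3.68, against 1.14 and 1.03 at the bases on either side. What part of them is DMS reactivity was not tested.

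**Figure D4:**
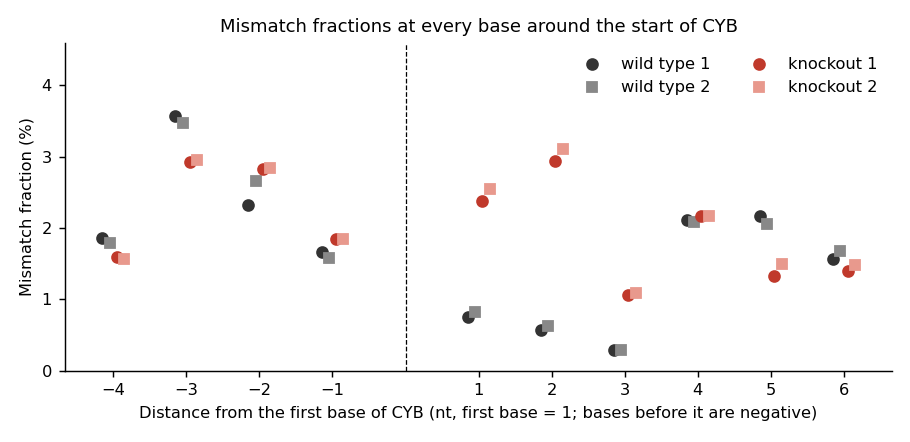
Mismatch fraction (%) at every base from 4 nt before the first base of CYB to nt 6, with 1 marker for each library. At nt 1, 2 and 3 the knockout libraries lie at 2.38% and 2.54%, 2.95% and 3.10%, and 1.07% and 1.09%, all above the wild-type libraries, which lie between 0.288% and 0.819%.

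The other 4 of the 5 largest rises were smaller. Position 15867, a C in ttgaaaaCaaaatac near the 3′ end, had 4.04% and 3.26% in wild type, which differ, and 5.39% and 5.39% in the knockout. Its centred change was 1.19 (limma adjusted p 0.000779), and 0.56 without centring. Position 14958, an A in tcactcgAgacgtaa, had 1.09% and 1.05% against 1.799% and 1.58%. Positions 14996 and 14997 are adjacent C bases that open window 6. They had 0.499% and 0.478% against 0.748% and 0.720%, and 0.538% and 0.530% against 0.772% and 0.956%. These 4 stayed higher without centring, by 0.50 to 0.61 (limma adjusted p from 0.00195 to 0.00946). In both groups, however, positions 14996 and 14997 lay under the background mean at T of CYB, 1.03% in wild type and 0.975% in the knockout.

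At the other end, the last base of CYB, a T at 15886, had 0.176% and 0.235% in wild type against 0.893% and 1.21% in the knockout. The C bases next to it at 15884 and 15885 had 1.09% and 1.25% against 1.67% and 1.65%, and 0.347% and 0.394% against 0.641% and 0.358%. At 15885 the groups overlap. Transcripts of CYB are joined to the threonine tRNA, TRNT, before processing, and its first base, a G at 15887, had 0.310% and 0.272% against 0.527% and 0.549%.

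Across windows, the middle and downstream parts of CYB were the most reactive in wild type. Of 23 windows, window 14 had the highest mean fraction, 4.42% and 4.36% in wild type against 2.82% and 2.80% in the knockout. By the mean log2 level windows 17 and 15 were the highest. Window 17 had 4.30% and 4.26% in wild type against 2.73% and 2.76% in the knockout. Window 15 had 4.23% and 4.16% against 2.63% and 2.65%. At the ends, window 1 had 2.64% and 2.60% against 2.00% and 2.02%, and window 23 had 2.31% and 2.49% against 1.91% and 1.88%. By the mean log2 level the lowest wild-type windows were 6 and 23. Window 6 had 3.22% and 3.15% against 2.71% and 2.74%, a mean that includes position 15043.

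All 23 windows were lower in the knockout without centring and were called by limma, where 90.9% of the windows of the file were lower, 2.11% higher and 93.1% called in all. After centring 18 were called, 78.3% against 86.1% in the file, with 16 higher (69.6% against 60.7%) and 2 lower (8.70% against 25.4%). Window 6 changed least without centring, by -0.08 (adjusted p 0.0165), and most after it, by 0.55 (limma SE 0.020, adjusted p 6.55e-06). Over positions with a mean fraction of at least 0.01 alone, its centred change was 0.36, close to the 0.35 of window 9. The size of its rise thus rests in part on positions of low fraction. Window 9 had 3.07% and 3.05% against 2.52% and 2.47%, which is 0.37 higher after centring but -0.26 without it. Window 12 had 3.68% and 3.63% against 2.19% and 2.17%, which gives -0.07 after centring (limma adjusted p 0.00148), -0.70 without it, and 0.05 when corrected for opposite-strand reads. Window 20 had 3.64% and 3.56% against 2.06% and 2.02%, which gives -0.09 after centring (limma adjusted p 0.00554) and -0.72 without it. Without wild-type replicate 1 the adjusted p of window 20 was 0.0527.

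**Figure D5:**
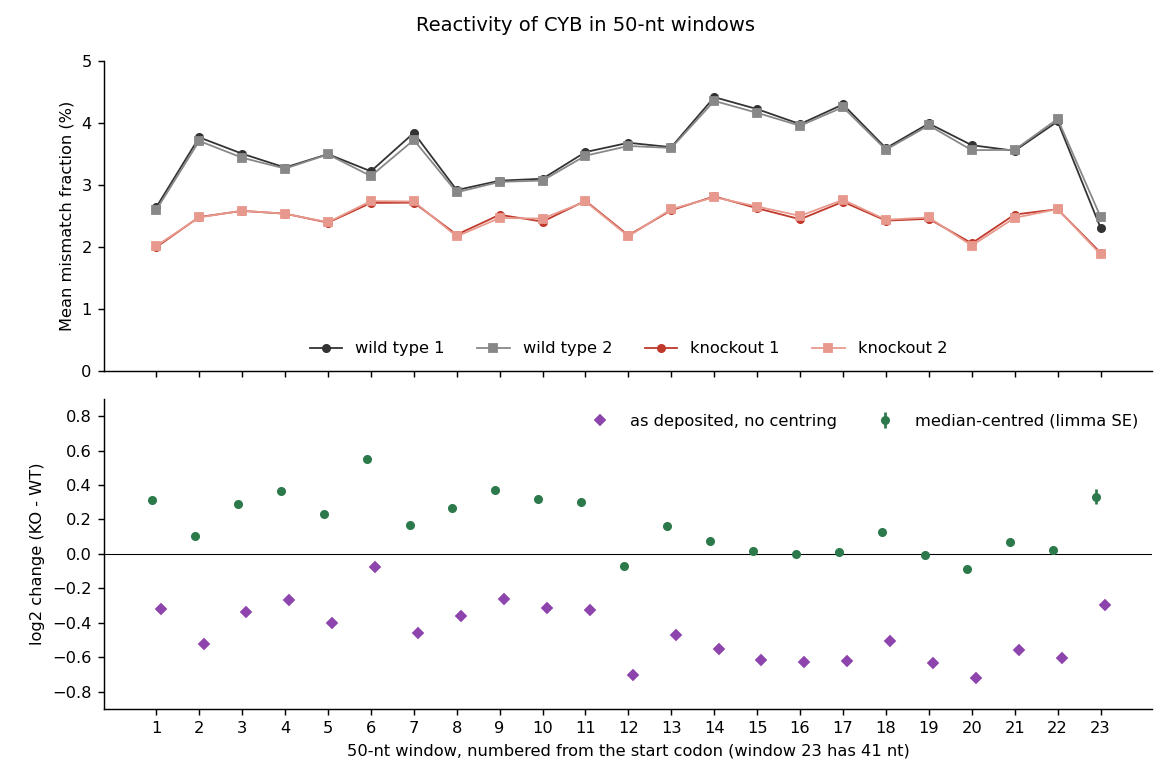
Upper panel, mean mismatch fraction (%) of tested adenine and cytosine in 23 windows of 50 nt along CYB, 1 line per library; lower panel, log2 change per window after centring (circles, bars are limma SE) and without it (diamonds). The wild-type lines are highest in windows 14, 15 and 17, the knockout lines are flatter, and the diamonds of windows 1 to 11 (-0.53 to -0.08) lie mostly above those of windows 12 to 22 (-0.72 to -0.47).

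The fall was unequal along the mRNA. In windows 1 to 11 the change without centring had a median of -0.33, and in windows 12 to 22 a median of -0.62. The last window, 23, went against this with -0.30. After this was seen, CYB was cut in the middle. The upstream 570 nt had 3.31% and 3.26% in wild type against 2.46% and 2.47% in the knockout, over 340 positions. The downstream 571 nt had 3.81% and 3.80% against 2.47% and 2.47%, over 373 positions. The parts differed in wild type and were level in the knockout. On the log2 scale upstream minus downstream was -0.28 ± 0.015 in wild type (SD, n = 2) and -0.05 ± 0.0012 in the knockout (n = 2), a difference between the groups of 0.24 (exact permutation p = 0.333). The change was larger downstream at both bases, with -0.24 upstream and -0.39 downstream at A, and -0.43 and -0.74 at C.

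Reads of the other strand were looked for through the background bases. If such reads are in the heavy-strand file, its G and T positions take on signal from the A and C they pair with. Over 423 G and T positions of CYB the regression slope on the paired bases of the light-strand file was 28.8% and 31.3% in wild type against 16.6% and 16.4% in the knockout. In the other direction, the slope of light-strand G and T on the paired A and C of CYB was 68.2% and 69.1% in wild type against 3.50% and 3.69% in the knockout. The light-strand background opposite CYB thus rose with CYB itself in wild type and hardly in the knockout. This was not particular to CYB. The same slope was lower in the knockout for each of the other 11 heavy-strand mRNAs, as in COX3 (75.1% to 3.20%) and, less so, ND1 (62.4% to 33.0%). Solving both slopes together gives an estimate of the share of light-strand reads within CYB, 11.9% ± 0.690 for wild type (n = 2) and 15.98% ± 0.118 for the knockout (exact permutation p = 0.333). It was 6.62% ± 1.14 upstream and 14.8% ± 2.85 downstream in wild type, against 14.5% ± 0.022 and 16.3% ± 0.279 in the knockout. The correction for opposite-strand reads did not use this share but the slope of heavy-strand G and T, 28.8% and 31.3% in wild type. It thus took off more than the share would, above all in wild type. The light-strand values it used held an estimated 60.5% of heavy-strand reads in wild type and 3.02% in the knockout. With this correction, an alternative chosen for this comparison after the data were seen, the difference of upstream minus downstream between the groups was 0.34.

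The start of CYB lay below the rest. With A and C each set against its own median in CYB, the first 50 nt differed from the rest by -0.37 and -0.38 in wild type and by -0.28 and -0.27 in the knockout, over 36 positions. The difference between the groups was 0.11 (exact permutation p = 0.333). It was 0.24 with the first 30 nt, 0.04 with the first 100 nt, 0.19 with A alone and 0.02 with C alone. Corrected for opposite-strand reads, again chosen after the data were seen, it reversed to -0.09.

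The place of a base in its codon made little difference to its level. In wild type A had 2.93% ± 0.0056, 2.91% ± 0.0081 and 2.89% ± 0.021 at codon positions 1, 2 and 3, and C had 4.11%, 4.23% and 4.01%. In the knockout A had 2.31%, 2.29% and 2.24%, and C 2.55%, 2.75% and 2.61%. The neighbouring base made more. A C after an A had 5.50% in wild type and 3.64% in the knockout (97 positions), and a C after another C had 3.12% and 1.84% (136 positions). For A the range over the bases before it was 2.57% after G to 3.05% after A in wild type. By the base that follows, the median change at C was -0.74 before another C and -0.45 before G, without centring.

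Reactivity was set beside the pairing predicted from the CYB sequence alone. Over 713 positions, which share libraries and neighbours, Spearman's rho between the fraction and the predicted probability of being unpaired was 0.348 and 0.353 in wild type and 0.339 in both knockout libraries. It was higher for C (0.463 and 0.466 against 0.417 and 0.418) than for A (0.190 and 0.1998 against 0.243 and 0.242), and the group with the higher value differed between the bases. C positions with a predicted probability over 0.8 had a median of 4.613% and 4.602% in wild type against 2.85% and 2.87% in the knockout. Those under 0.2 had 1.28% and 1.25% against 1.00% and 1.01%. The median change without centring was -0.63 over the 227 C positions predicted unpaired and -0.10 over the 31 predicted paired. The C positions predicted paired lay near the background mean at T, 1.03% in wild type and 0.975% in the knockout. How far this background limits their change was not tested. At A it was -0.32 over 184 and -0.20 over 28.

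Folding models of the whole mRNA were then guided by each library's fractions, so that their agreement with the fractions is no finding. They held 171 and 174 base pairs in wild type against 175 and 175 in the knockout, of which 148 were in all 4. The replicate models shared 92.2% (wild type) and 100% (knockout) of their pairs, and models of different groups shared 84.8% to 90.2%. With pairs limited to 160 nt the share between groups was 75.6% to 75.8%, against 99.7% and 100% within groups. With fractions divided by the 90th percentile of their base instead, models of different groups shared 93.2% to 98.0% of their pairs. Replicate models then shared 100% (wild type) and 94.2% (knockout), so the shares within and between groups overlapped. The number of pairs that set the groups apart therefore depends on the limit on the span and on the scaling of the fractions.

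The 3 longest helices found in all 4 models are printed with their arms in capitals. They are pairs of the guided models, and pairing itself was not measured. Pairs of G with T (U in the RNA) count as pairs.
Helix 1, MT:14833-14940: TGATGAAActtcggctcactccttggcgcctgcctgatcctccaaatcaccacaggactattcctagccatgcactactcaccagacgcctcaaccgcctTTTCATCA
Helix 2, MT:15166-15307: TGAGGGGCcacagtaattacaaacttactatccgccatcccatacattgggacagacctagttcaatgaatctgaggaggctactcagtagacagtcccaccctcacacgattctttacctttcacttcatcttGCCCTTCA
Helix 3, MT:15555-15574: CGAATGatatttccTATTCG
Helices 1 and 2 have 8 stacked pairs and helix 3 has 6, closing a loop of 8 nt. Helix 1 is not in the model from sequence alone, and helices 2 and 3 are.

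The arms of helix 1 lay below the stretch between them in each library, and those of helix 2 did so clearly in the knockout alone, with no test of that difference. As the models were guided by these same fractions, low values in the arms are a description and no finding. In helix 1 the 8 tested arm positions had 1.71% and 1.75% in wild type against 1.88% and 1.90% in the knockout, and the 58 positions between the arms had 3.52% and 3.47% against 2.61% and 2.61%. In helix 2 the 7 arm positions had 3.16% and 3.04% in wild type, close to the 3.28% and 3.24% between the arms, and 2.00% and 1.98% in the knockout, against 2.58% and 2.59%. Position 15301, among the largest falls, lies in its 3′ arm. In helix 3 the 5 arm positions had 3.52% and 3.53% against 2.13% and 2.22%, and the 4 loop positions 4.33% and 4.28% against 2.86% and 2.92%. The stretches between the arms of helices 1 and 2 are not unpaired throughout, as they hold 17 and 24 pairs found in all 4 models. These means also pool A and C, whose levels differ, without adjusting for the base.

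Positions left out of the tests for a mean above 30% were the C at 14765 and the A at 14792, 15217 and 15325, with 88.6% to 97.5% over the 4 libraries; a G at 15465 had 93.6% to 94.2%. The lowest of them had a mean of 90.5%, and the highest tested position, 15043, a mean of 20.2%. As DMS does not report on G, and the G at 15465 was as high, the fractions above 30% were not read as reactivity. Across tested positions of CYB, Pearson's r of log2 values was 0.996 between the wild-type libraries, 0.989 between the knockout libraries and 0.873 to 0.877 between groups, as a description, since positions are not replicates. No position of CYB was listed at 0 in any library.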

How the data were processed

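The authors deposited a fraction for each base of each strand, as mismatches alone (used here) and with deletions added, per the file headers. The design text names mitochondrial alignment and DREEM, and the submitters' processing notes name cutadapt and Bowtie2. Versions, read filters, coverage and build are not given in the sources used here.

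A and C positions were tested where the 4 libraries' mean lay between 0.002 and 0.3. Values were taken as log2(fraction + 0.001), which understates changes of low positions, and centred on each library's median over the tested positions of its file. The 9910 positions, 331 windows of 50 nt (8 or more positions) and 37 genes (10 or more) were fitted with limma 3.58.1 in R 4.3.3 (eBayes, with a mean-variance trend for positions and windows), two-sided, Benjamini-Hochberg adjusted, threshold 0.05, and tested on simulated data. Named positions were the 5 largest rises and falls among called positions whose groups did not overlap, the 5 highest in wild type, and those above the upper limit. Named windows were the first, the last and the 2 highest, lowest, most risen and most fallen. Named helices were the 3 longest in all 4 models. Members and lists were chosen with earlier results of these data known. With the table's gene positions lowered by 1 after the reference's gap base, 13 of 13 coding genes had an open frame. Pairing used ViennaRNA 2.7.2: windows of 240 nt with spans of 160 nt, and for the guided models a span of 300 nt, fractions divided by the 95th percentile of their base, slope 1.8 and intercept -0.6 kcal/mol. Python 3.11.15 was used for the rest.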

Additional observations from a re-analysis of the deposited data

Results flagged for a closer look

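At G and T positions of CYB, which entered no comparison of structure, 6 of 423 had both knockout libraries at 3 times the highest wild-type value or more. At the start codon these were the T at 14747 (0.60% ± 0.0339 in wild type, 3.02% ± 0.110 in the knockout, SD, n = 2 each) and the G at 14748 (0.292% ± 0.00636 and 1.08% ± 0.0156). At the last base it was the T at 15886 (0.205% ± 0.0417 and 1.05% ± 0.223). Within the mRNA they were the T at 15007 (0.251% and 0.848%), the G at 15042 (0.187% and 0.797%), which is next to the tested C of CYB with the highest fraction, and the T at 15743 (0.337% and 1.41%). These differences were not tested.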

How the results depend on the processing

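The direction of CYB as a whole depends on the centring: the change of 0.16 became -0.47 without it. It kept its sign and call under the other alternatives (0.10 to 0.22), apart from the fits without 1 library (0.16 to 0.17), where the call was lost without either knockout library. The Gini change was -0.000104 with C positions alone and ranged from -0.0297 to -0.0252 without 1 library. Called positions numbered 202 of 323 with A alone, 311 of 390 with C alone and 420 to 531 without 1 library. Without centring 28 were higher and 609 lower; centred on the highest 5% of positions, 372 and 151. Called windows numbered 37 of 46 with 25 nt, 11 of 12 with 100 nt, and 16 to 18 without 1 library. CYB minus the other mRNAs ranged from 0.10 to 0.11, C minus A from -0.28 to -0.26, and the first 50 nt minus the rest from 0.10 to 0.11 without 1 library; the last reversed to -0.0938 when corrected for opposite-strand reads. The cause was not tested.

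Without centring positions 15043 and 15759 changed by -0.19 and -0.29, and the windows from 14746, 14996, 15146 and 15846 by -0.32, -0.079, -0.26 and -0.30. The windows from 15446 and 15546, not called after centring, turned to -0.62 and -0.62 without it. Centred on the highest 5% they were -0.0276 and -0.0325, with a mean fraction of at least 0.01 they were -0.00989 and -0.0149, and with a pseudocount of 0.01 they were -0.0218 and -0.0243. The window from 15296 was 0.0520 when corrected for opposite-strand reads. Position 15043 lost its call with a pseudocount of 0.01 (0.28) and with quantile normalization (0). Replicate numbers do not pair the libraries by the labels, and same-numbered deviations correlated at 0.0007. With the replicate block the change of CYB stayed 0.16 (limma adjusted p 0.0233), the Gini change -0.0274 (adjusted p 0.0319), 522 positions and 18 windows. Depth is unknown, so the counting error of a low fraction could not be given.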
